A study of Equus caballus with 31 samples.

Results

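Gene expression was compared between the cells of joint fluid (synovial fluid) and the mononuclear cells of blood (PBMC) taken from the same horse, in every horse with osteoarthritis (OA) for which both samples were sequenced. These are 5 horses, named OA_1038, OA_2615, OA_3850, OA_9350 and OA_9570 in the labels, and 10 of the 31 libraries of the series. The question was how gene expression in the cells of an arthritic joint differed from that in the animal's own circulating cells. The remaining libraries came from healthy horses and from 1 further OA blood sample, and the 8 healthy horses with both samples (16 libraries) served as the nearest comparison.

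All horses carry the genotype label WT and all samples the cell type label of mixed mononuclear cells. OA here is naturally occurring disease in individual animals. The labels give no age, sex, joint or batch. Fluid was digested with hyaluronidase at body temperature before its cells were spun down, a step the labels describe for fluid only. Tissue and handling therefore cannot be told apart. Both kinds of cell pellet were frozen, and polyadenylated RNA was sequenced. Each horse is a separate animal, so the p-values below measure the spread between horses. In bulk RNA, fewer cells of a type and less RNA per cell cannot be told apart, which holds for every gene below.

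Synovial fluid is a filtrate of plasma enriched in hyaluronan and lubricin, which the lining cells of the joint secrete. The lining consists of resident macrophages and fibroblast-like synoviocytes, and both can shed into the fluid. Leukocytes enter from blood by adhering to vessel walls and following chemokines. PBMC are mainly T cells, B cells, natural killer (NK) cells and monocytes, and contain no fibroblasts. In OA the lining thickens, its cells release proteases and cytokines, and cartilage matrix is lost.

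Fluid libraries held 25.9 to 35.4 M reads and blood libraries 31.7 to 34.8 M. Fluid was shallower in 4 of 5 horses, by 4.04 M on average (two-sided exact sign-flip permutation p = 0.125; 5 pairs cannot go below 0.0625). Fewer genes were above 0 in fluid (13205 to 15278) than in blood (14692 to 15421), in 5 of 5 horses (exact sign-flip permutation p = 0.0625). The fluid and blood tables were normalized separately by the authors. Each library was therefore rescaled to a total of 1 M over the 16799 gene symbols found once in both tables, and levels are given on that scale as RPM, the reads a gene would have in a library of that total. Where values of several libraries are listed, the horses are in the order OA_1038, OA_2615, OA_3850, OA_9350, OA_9570. Differences are fluid minus own blood on the log2(value + 1) scale, with the standard error from limma and its Benjamini-Hochberg adjusted p. This scale understates the change of genes with low values.

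One fluid library stood apart. The fluid of OA_9570 held little RNA of connective tissue genes: the mean difference from own blood over 16 tested synovial fibroblast genes was 0.44 in this horse against 3.06 to 4.92 in the other 4. Of the 160 genes that were at least 16-fold higher in fluid, OA_9570 had the smallest difference for 136, with a median of 1.95 against 5.11 to 6.44 in the other horses. Results on connective tissue genes are therefore given with and without OA_9570. The fluid of OA_2615 held the least lymphocyte RNA, and of the 34 genes at least 16-fold lower in fluid it had the largest fall for 29.

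Fluid and blood of the same horse differed at a large share of all genes. Of 12681 genes tested, 2334 were higher in fluid (18.4% of those tested) and 3942 were lower (31.1%) at an adjusted p below 0.05. Among the called genes, 1623 were at least 2-fold higher and 2044 at least 2-fold lower, and 160 were at least 16-fold higher against 34 at least 16-fold lower. All 5 horses moved the same way for 1835 of the 2334 higher genes and for 3678 of the 3942 lower genes. Fluid and blood levels did not overlap for 1245 of the higher genes (53.3%) and 2803 of the lower genes (71.1%). Lack of overlap was thus common among called genes. The split between higher and lower depended on how libraries were put on 1 scale. Higher genes made up 37.2% of the calls with equal totals, 48.6% with TMM factors and 52.1% with median-ratio factors, which moved the median difference of all genes from -0.20 to -0.04 and 0.01. A list of genes is read below against the shares of all genes and against this median of -0.20, and no list median changed sign between the 3 scalings.

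**Figure D1:**
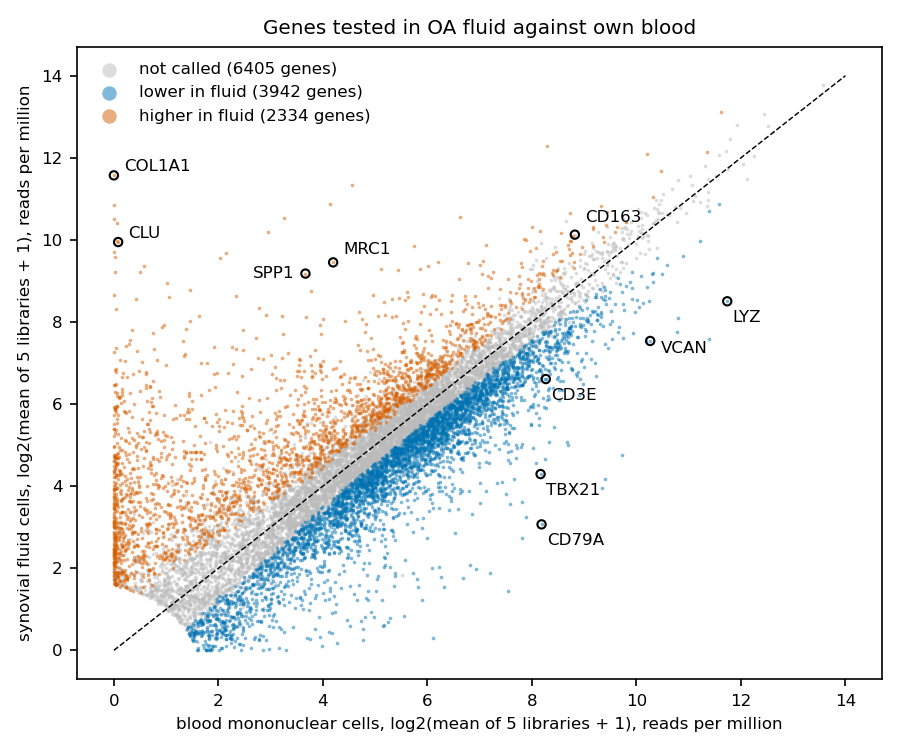
Mean level of each tested gene in the 5 fluid libraries (vertical axis) against the 5 blood libraries (horizontal axis), both as log2(mean + 1) in RPM, with 1 point per gene and the dashed line marking equal levels. The 2334 genes called higher in fluid include many with blood levels at or near 0, such as COL1A1 and CLU, and the 3942 called lower include CD79A, TBX21 and LYZ.

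Connective tissue genes showed the largest rises. COL1A1, which encodes a chain of type I collagen (ENSECAG00000013693, chromosome 11, 25988357 to 26004604 on EquCab3.0), measured 2287, 8354, 3077, 1495 and 8.73 RPM in the 5 fluids and 0 in all 5 bloods. The fluids of 4 horses ran from 1495 to 8354 and that of OA_9570 was low, though still above every blood. With no read in any blood library, the fluid mean was at least 170460-fold higher than the level that 3 reads over the 5 bloods would give, and the fitted difference was 9.92 ± 1.24, adjusted p = 0.00118. COL1A2, the partner chain, measured 1588, 5214, 1578, 781 and 10.6 in fluid and again 0 in blood (9.35 ± 1.10, adjusted p = 0.000978), a fluid mean at least 102710-fold above the same floor. COL3A1, the type III collagen of soft tissues, differed by 8.91 ± 1.21, adjusted p = 0.00154, with fluids from 4.6 to 3363. Without OA_9570 these 3 differences were 11.58, 10.80 and 10.51. COL6A1, a chain of the type VI collagen that forms microfibrils around cells, ranked the horses as COL1A1 did. It measured 927, 1548, 1070.4, 599 and 11.4 in fluid and at most 0.0315 in blood (8.67 ± 0.93, adjusted p = 0.000759), and COL6A2 and COL6A3 differed by 7.03 and 7.94.

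Small proteoglycans and lining cell genes rose with the collagens. BGN (biglycan) reached 2104, 865, 583, 259 and 21.9 in fluid, with OA_1038 highest, and at most 0.0631 in blood (8.48 ± 0.81, adjusted p = 0.000535). DCN (decorin), which binds collagen fibrils, measured 659.5, 747, 363, 254 and 3.59 in fluid and 0 in every blood (7.52 ± 1.0, adjusted p = 0.00139). LUM (lumican) was from 0.452 to 347 in fluid and 0 in every blood (5.92 ± 1.05, adjusted p = 0.00377). HAS1, a hyaluronan synthase, measured 24, 112, 157, 36.3 and 2.74 in fluid and at most 0.252 in blood (4.98 ± 0.69, adjusted p = 0.0016), with OA_3850 highest and OA_9570 lowest. CLU, the secreted chaperone clusterin, was from 16 to 1676 in fluid (8.89 ± 0.90, adjusted p = 0.000637), and CAVIN1, a coat protein of caveolae, from 25.9 to 2032 (7.42 ± 0.79, adjusted p = 0.000736). No fluid library overlapped a blood library for any of these genes. As lists, 18 of 22 tested collagen and matrix protein genes rose and 1 fell, with a median difference of 5.33, and 14 of 16 tested synovial fibroblast genes rose and none fell, with a median of 3.63. Without OA_9570 the fitted medians were 6.55 and 4.31. Listed genes with no blood read, such as COL1A1 and DCN, passed the filter through fluid alone, so they could only come out higher. Fewer genes of both lists were called higher with a mean of at least 1 required in each tissue, as given at the end.

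Not every matrix gene was higher in fluid. THBS1 (thrombospondin 1), which platelets and monocytes also make, measured 49.2, 154, 429.9, 427 and 314 in fluid and 1854, 819.6, 2295, 1716 and 2188 in blood (-2.96 ± 0.44, adjusted p = 0.00206). It was the 1 gene of the matrix list called lower, and the groups did not overlap. VCAN (versican), a matrix proteoglycan that circulating monocytes express, measured 42.7, 38, 373, 109 and 361 in fluid and 1003, 837, 1673, 1220.4 and 1408 in blood (-3.31 ± 0.42, adjusted p = 0.00123), lower in 5 of 5 horses. Cartilage genes were near the floor: the 13 of 16 listed genes with a symbol shared by fluid and blood summed to 12.03 to 53.1 RPM in fluid. In blood they summed to 23.8 to 36.1, and 7 of them were tested. Of these 7, 2 rose (COL11A1 and HAPLN1) and 3 fell (COL9A2, CHAD and CILP), beside 18.4% of all genes higher and 31.1% lower. Without OA_9350 1 rose and 1 fell. COL2A1, the collagen of hyaline cartilage, measured 2.41, 4.64, 0.386, 1.4 and 0.593 in fluid and 1.89, 2.25, 1.78, 1.76 and 2.33 in blood (-0.25 ± 0.36, adjusted p = 0.59). COL9A2, a chain of cartilage type IX collagen, was lower in every fluid (8.71, 2.13, 4.45, 5.48 and 8.59) than in any blood (23.5, 12.7, 11.3, 21.2 and 13.2; -1.40 ± 0.26, adjusted p = 0.00461). The cartilage proteoglycan gene ACAN and the lubricin gene PRG4 were not analysed here.

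Among enzymes that cut the matrix, 9 of 17 tested genes rose and 1 fell (median 1.43). MMP14, the membrane-bound collagenase that also activates other metalloproteinases, measured 33.4, 164, 84.8, 123 and 2.54 in fluid and at most 0.284 in blood (5.37 ± 0.74, adjusted p = 0.00162). ADAMTS5, an aggrecan-cleaving enzyme central to cartilage loss in mice, measured 20.4, 28.9, 30.9, 26.9 and 0.0282 in fluid and at most 0.117 in blood (3.80 ± 0.72, adjusted p = 0.00485). Its fluid level was between 20.4 and 30.9 in 4 horses, whereas OA_9570 lay within the blood range. MMP19 and ADAM9, a membrane sheddase, differed by 3.28 and 2.20 and rose in 5 of 5 horses. MMP9, the gelatinase of myeloid cells, went the other way, with 40.4, 148, 279, 28.7 and 433 in fluid and 1564, 833, 1669, 901 and 855 in blood (-3.24 ± 0.60, adjusted p = 0.00439).

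Inhibitors of these enzymes were also higher, in 6 of 9 tested genes and lower in none (median 2.44). TIMP1, a broad inhibitor of metalloproteinases (chromosome X, 40033705 to 40036521), measured 174, 315, 642, 558 and 325 in fluid and 63.1, 74, 60.1, 55.9 and 81 in blood, a 6.03-fold ratio of means (2.44 ± 0.31, adjusted p = 0.00119). TIMP1 was high in OA_9570 too, unlike the matrix-bound TIMP3, which measured 118, 247, 233, 275 and 2.01 in fluid and at most 0.378 in blood (6.19 ± 0.89, adjusted p = 0.00185). SERPINF1, an inhibitor-family protein with antiangiogenic activity, differed by 5.26 ± 0.73, adjusted p = 0.00166.

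**Figure D2:**
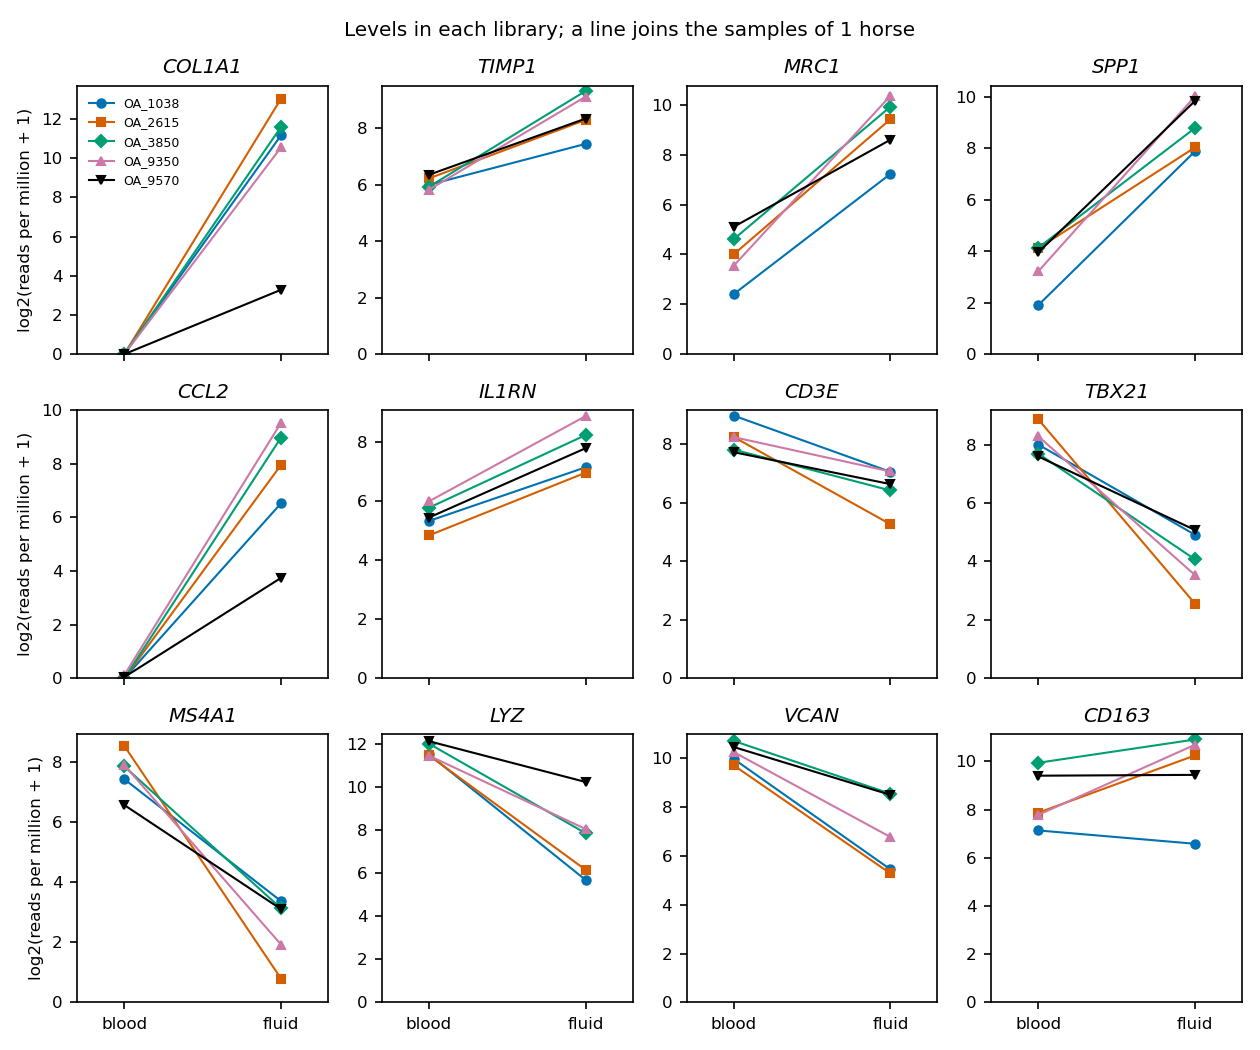
Level of 12 genes in each library as log2(RPM + 1), with blood at the left and fluid at the right of each panel and a line joining the samples of 1 horse. COL1A1, MRC1, SPP1 and CCL2 rose in all 5 horses and CD3E, TBX21, MS4A1, LYZ and VCAN fell in all 5, whereas CD163 rose in 4 and fell in OA_1038.

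Genes of tissue-resident macrophages formed the other strongly raised group, with 13 of 15 tested genes higher and none lower (median 4.53). MRC1, the mannose receptor (chromosome 29, 18703005 to 18792802), measured 149, 684, 969, 1310.4 and 386 in fluid and 4.29, 15, 23.4, 10.6 and 33.4 in blood, a 40.4-fold ratio of means (5.17 ± 0.40, adjusted p = 0.000314). LYVE1, a hyaluronan receptor of lining and perivascular macrophages, measured 20.8, 121, 230.5, 172 and 34.2 in fluid and was read in 1 blood library only, at 0.175 (6.31 ± 0.51, adjusted p = 0.000321). The complement components C1QB and C1QC, which macrophages secrete, differed by 6.33 ± 0.47 and 6.33 ± 0.50. C1QB measured 328, 4817, 885, 2654 and 693 in fluid and 3.78, 20.4, 20.3, 11.8 and 26.6 in blood, with OA_2615 highest and OA_1038 lowest in fluid. CD163, the haemoglobin scavenger receptor, was not called: it measured 95, 1217, 1926, 1656 and 696 in fluid and 139.8, 234, 986, 219 and 679 in blood (1.15 ± 0.50, adjusted p = 0.0907). OA_1038 was the 1 horse whose fluid lay below its own blood, and without it the CD163 difference was 1.57 (adjusted p = 0.0406). OA_1038 was singled out by its CD163 values in these same data, so leaving it out was bound to raise the difference. That p is therefore no independent test. Over the whole list the summed level was 1960 to 16691 RPM in fluid and 446 to 1467 in blood. OA_9570, at a mean difference of 2.79 for this list, lay beside OA_1038 at 2.91, with the other 3 horses from 3.45 to 5.05.

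Lipid-handling and scavenger genes of macrophages rose in the same libraries. SPP1 (osteopontin) measured 236, 262, 442, 1037 and 919 in fluid and 2.74, 16.3, 16.6, 8.32 and 14.5 in blood, a 49.5-fold ratio (5.45 ± 0.39, adjusted p = 0.000234). GPNMB, a lysosomal membrane glycoprotein, measured 51.6, 1858, 253, 1088 and 38.7 in fluid and under 1 in every blood (7.43 ± 0.76, adjusted p = 0.000637). APOE, the lipid carrier, measured 66.1, 1885, 224, 2795 and 37.7 in fluid and at most 0.0908 in blood (8.25 ± 0.92, adjusted p = 0.000837). For both genes OA_2615 and OA_9350 were highest, and OA_9570 and OA_1038 lowest. FABP5, a fatty acid carrier, and LPL, lipoprotein lipase, differed by 3.13 and 3.90, and C3AR1, the receptor for complement fragment C3a, by 5.77. The lysosome and lipid list held 13 of 25 genes higher and 1 lower (median 1.07).

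Genes of circulating monocytes were mostly lower: 5 of 9 tested fell and 2 rose. LYZ (lysozyme) measured 50.3, 70.0, 229.6, 263 and 1198 in fluid and 2908, 2819, 4109, 2793 and 4448 in blood (-4.12 ± 0.53, adjusted p = 0.00129), and fluid was below blood in every horse, least so in OA_9570. S100A12, an alarmin of monocytes and neutrophils, measured 9.45, 0.696, 38.7, 18.1 and 96.1 in fluid and 478, 177, 348, 561 and 456 in blood (-4.50 ± 0.60, adjusted p = 0.0014). CX3CR1, the fractalkine receptor, differed by -2.17 ± 0.37, adjusted p = 0.00325. CD14, the co-receptor for endotoxin, rose from 7.19, 2.51, 12.1, 14.8 and 7.42 in blood to 11.5, 30.0, 31.5, 24.8 and 23.3 in fluid (1.46 ± 0.36, adjusted p = 0.0136). NR4A1, an inducible nuclear receptor, rose as well (3.0 ± 0.71, adjusted p = 0.0113), with fluid levels from 76.9 in OA_9570 to 1551 in OA_9350. Of dendritic cell genes, 2 of 13 rose and 3 fell (median 0.34), beside 18.4% of all genes higher and 31.1% lower. Without OA_2615 6 rose, and without OA_9350 1 fell. CADM1 (1.59) and the activation marker CD83 (2.01) were higher and the tryptophan-degrading enzyme IDO1 lower (-3.15 ± 0.76, adjusted p = 0.0123).

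T cell genes were lower in fluid without exception: 15 of 15 tested genes fell, with a median of -2.24. CD3E, a chain of the T cell receptor complex (chromosome 7, 26728316 to 26738870), measured 131, 37.3, 84.2, 132 and 98 in fluid and 500.1, 301, 223, 300.1 and 209.9 in blood (-1.71 ± 0.28, adjusted p = 0.00279). Blood was above fluid in all 5 horses and the groups did not overlap. LCK, the kinase that starts T cell receptor signalling, measured 130.1, 33.7, 68.8, 80.1 and 85.7 in fluid and 579, 419.7, 239.7, 355 and 304 in blood (-2.30 ± 0.27, adjusted p = 0.000938). CD3D, CD247 and TRAT1, further parts of the receptor complex, differed by -2.12, -2.31 and -2.85. OA_2615 had the largest fall for all 5 genes. The summed level of the list was 290 to 1176 RPM in fluid and 2105 to 4475 in blood, so T cell RNA was reduced in fluid but measured in every library.

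Of genes of naive and recirculating lymphocytes 8 of 9 tested fell, with a median of -2.81. LEF1 and TCF7, transcription factors of naive T cells, measured 47.5, 3.1, 33, 8.08 and 22 and 29, 2.05, 21.6, 14.5 and 18.3 in fluid against 526, 173, 248, 135 and 264 and 343, 153, 177, 151 and 187 in blood (-3.83 ± 0.33, adjusted p = 0.000388, and -3.75 ± 0.37, adjusted p = 0.000603). S1PR1, the receptor that guides lymphocytes out of tissue, differed by -2.81 ± 0.26, adjusted p = 0.000439, and BACH2, a repressor of effector fate, by -2.40. Of 15 tested genes of activated and tissue-homing T cells 4 were higher and 3 lower, or 2 and 1 without OA_9350 (median 0.29). These counts were not far from the shares of all genes, 18.4% higher and 31.1% lower. RGS1, a brake on chemokine receptors in tissue lymphocytes that macrophages also express, measured 129.5, 335, 442, 655 and 368 in fluid and 62.8, 22.7, 21.9, 64.5 and 44 in blood (3.10 ± 0.42, adjusted p = 0.00153). CXCR3, the receptor of type 1 T cells, was lower (-1.21 ± 0.30, adjusted p = 0.0141), and missed the threshold without OA_9350 (adjusted p = 0.0543).

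Of 14 tested cytotoxic and NK cell genes 8 fell and none rose (median -1.0). The count depended on the horses and the scaling: 5 fell without OA_2615 or OA_3850 and 4 without OA_9350, while 5 fell and 1 rose with TMM factors and 4 fell and 1 rose with median-ratio factors. TBX21, the transcription factor of type 1 lymphocytes and NK cells, showed the steepest fall of the list, with 29.1, 4.88, 15.8, 10.6 and 32.8 in fluid and 256, 466, 206, 311 and 192.4 in blood (-4.06 ± 0.50, adjusted p = 0.00114). GZMM (granzyme M) measured 19.2, 2.36, 9.74, 20.4 and 16.6 in fluid and 119.7, 85, 47.1, 170.4 and 77.1 in blood, a 7.31-fold higher mean in blood (-2.91 ± 0.36, adjusted p = 0.00116). CD8A fell less, by -1.12 on the log2 scale (adjusted p = 0.00276), and still without overlap between fluid and blood. S1PR5 and ADGRG1, both marking circulating cytotoxic cells, differed by -4.12 and -4.07. Of 13 regulatory and helper genes 8 fell, among them GATA3 (-2.23), CD40LG (-1.84), CCR4 (-2.14) and the regulatory T cell factor FOXP3, which was at 1.24 to 5.88 in fluid and 7.27 to 18.9 in blood (-1.47 ± 0.26, adjusted p = 0.00344). The 1 gene of this list that rose was CCR6, a chemokine receptor of type 17 T cells, at 15.9, 27.2, 31.2, 27.3 and 9.55 in fluid and 12.8, 12.1, 10.9, 6.22 and 8.72 in blood (0.99 ± 0.30, adjusted p = 0.026). Its call was lost without OA_2615, OA_3850 or OA_9350, with an adjusted p of 0.0667 to 0.0904.

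B cell genes had the lowest median of all 40 lists. CD79A, a signalling chain of the B cell receptor (chromosome 10, 14006545 to 14010077), measured 13.8, 1.47, 8.87, 0 and 12.9 in fluid and 266, 481, 293, 299.9 and 111 in blood, a 39.2-fold higher mean in blood (-5.59 ± 0.74, adjusted p = 0.00137). MS4A1, which encodes CD20, measured 9.38, 0.735, 7.78, 2.81 and 7.63 in fluid and 172, 373, 232, 239 and 94.4 in blood (-5.20 ± 0.57, adjusted p = 0.00077). PAX5, the factor that fixes B cell identity, measured 0.91, 0, 2.14, 0 and 0.932 in fluid and 40.5, 63, 71.3, 38.2 and 17.5 in blood (-4.70 ± 0.38, adjusted p = 0.000314). In OA_2615 and OA_9350 the fluid had no PAX5 read, and no fluid overlapped a blood library for these 3 genes. Altogether 11 of 12 tested B cell genes fell and none rose, with a median of -3.74, including the receptor for B cell survival factor TNFRSF13C (-4.18), CR2 (-3.80) and the IgM receptor FCMR (-4.29). Summed B cell levels were 95.2 to 174 RPM in fluid and 551 to 1629 in blood. POU2AF1, a coactivator of antibody genes, fell likewise (-5.03). Of 11 plasma cell genes 5 fell and 1 rose, beside 31.1% of all genes lower and 18.4% higher. JCHAIN, which joins secreted antibody, measured 18.9, 20.7, 16.8, 14.8 and 9.69 in fluid and 187, 208.6, 81.6, 107 and 269.7 in blood (-3.23 ± 0.32, adjusted p = 0.00059), while MZB1 was read in 1 of 5 fluids.

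Markers of cells that a blood sample or an aspirate can carry along were low or lower in fluid. Alpha-globin transcripts, counted under the near-identical symbols HBA and HBA2 and uncertain for that reason, were at most 1.03 RPM in any fluid and 0.23 to 34.1 in blood. The 8 of 12 listed erythroid genes with a symbol shared by fluid and blood summed to 1.23 to 3.60 in fluid and 4.95 to 72.1 in blood. The 3 erythroid genes tested all fell, whereas HBB was not analysed here. Of 9 tested platelet genes of 13 listed, 6 fell and none rose, but 2 fell without OA_2615 and 4 did so without OA_9350. The platelet tubulin TUBB1 measured 0.105, 0, 0.21, 0 and 0.593 in fluid and 42.6, 45.3, 10.2, 14.4 and 18.9 in blood (-4.33 ± 0.40, adjusted p = 0.000428), and the collagen receptor GP6 was 0 in every fluid. SELP (P-selectin) was the exception to this depletion in 1 horse, with 18.4, 3.75, 44.3, 19.8 and 225 in fluid and 129, 123, 122, 284 and 193 in blood (-2.49 ± 0.64, adjusted p = 0.0151), and OA_9570 had more in fluid than in blood. Without OA_9350 the SELP call was lost (adjusted p = 0.0598). Of 4 tested neutrophil genes of 14 listed, 3 fell (MMP9, LTF and ALPL), and their list summed to 36.0 to 588 in fluid and 886 to 1731 in blood. ALPL, a neutrophil and bone enzyme, measured 8.96, 0.929, 21.5, 5.52 and 153 in fluid and 55.6, 35.4, 56, 102 and 65.2 in blood (-2.17 ± 0.73, adjusted p = 0.0401), high in OA_9570 alone, and its call was lost without any 1 of the other 4 horses (adjusted p of 0.0703 to 0.137). Endothelial genes summed to 101.0 to 179.8 RPM in fluid and 118 to 194 in blood, and VWF was at 0.735 to 3.01 in fluid. Of 8 endothelial genes tested 2 fell and none rose, beside 31.1% of all genes lower and 18.4% higher. Whether any of these cells contributed to the differences described was not tested beyond these levels.

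**Figure D3:**
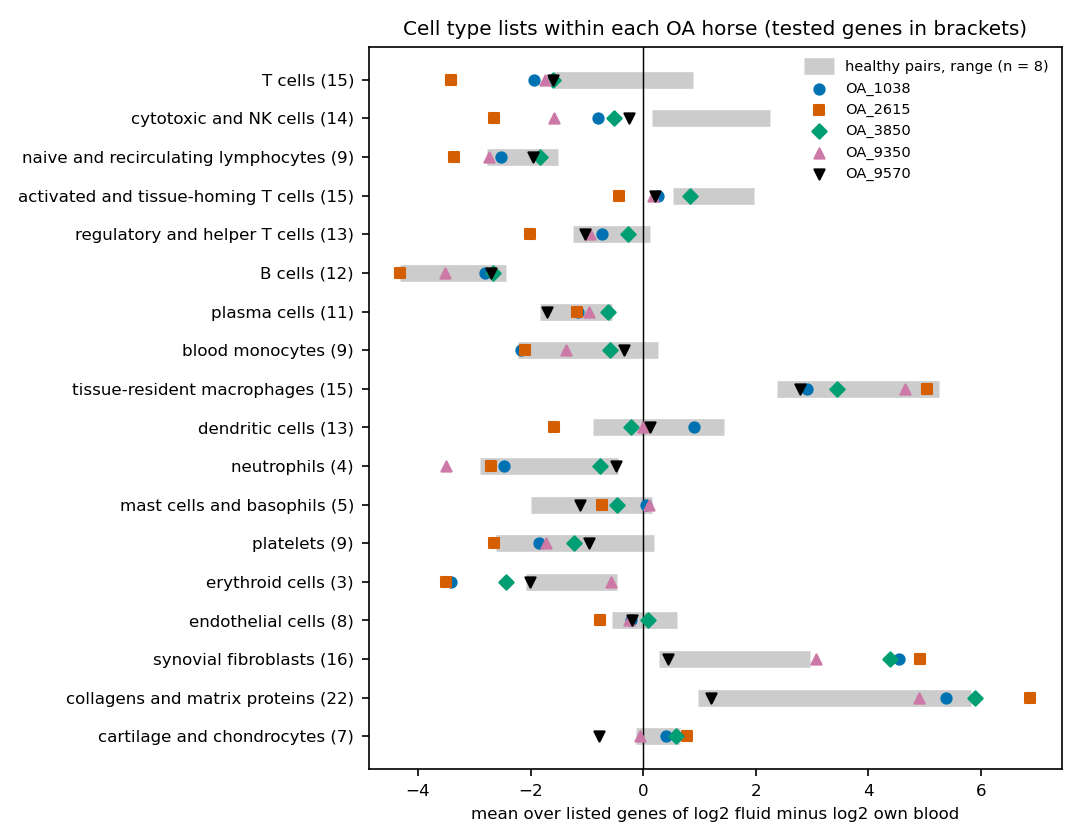
Mean log2 difference between fluid and own blood over the tested genes of each cell type list (number in brackets), with 1 symbol per OA horse and a grey bar for the range of the 8 healthy pairs. Macrophage, fibroblast and matrix lists lie right of 0 in all 5 OA horses and the T cell, B cell and naive lymphocyte lists left of 0, with OA_9570 lowest for fibroblast and matrix genes.

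Several chemokines were far higher in fluid, while others were lower. CCL2, the main attractant of monocytes (chromosome 11, 38886881 to 38888825), measured 91, 247, 503, 736 and 12.4 in fluid and at most 0.0863 in blood (7.31 ± 0.76, adjusted p = 0.000684). CXCL1, an attractant of neutrophils, measured 248, 1092, 1162, 471 and 339 in fluid and 158, 21.5, 20.2, 104 and 15.2 in blood (3.72 ± 0.73, adjusted p = 0.00562). CCL8 and the scavenger-type ligand CXCL16 differed by 3.5 ± 0.73 and 2.29 ± 0.29. CCL5, made by cytotoxic lymphocytes, was lower, at 333, 74, 228, 161 and 275 in fluid and 1168, 1077, 330.4, 984 and 472 in blood (-1.91 ± 0.46, adjusted p = 0.0121), as was CXCL14 (-1.98). Of 25 listed chemokine genes 13 were tested, of which 7 rose and 2 fell, with a median of 1.47, and 4 rose without OA_3850.

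Inflammatory mediators moved in both directions. IL1B, the interleukin-1 beta gene, measured 53.2, 24.5, 138, 122 and 49.4 in fluid and 26.7, 2.92, 7.65, 15.7 and 5.54 in blood (2.7 ± 0.38, adjusted p = 0.0017). IL1RN, its natural antagonist, rose to a similar degree, with 141, 125, 303, 473 and 222 in fluid and 39.3, 27.7, 54.1, 62.9 and 42.7 in blood (2.33 ± 0.18, adjusted p = 0.000262), and no fluid overlapped a blood library. CASP1, which cleaves the interleukin-1 precursor, and the pore former GSDMD were lower (-1.13 and -1.04). For IL1B, the fluids of OA_3850 and OA_9350 were above 100 and the other 3 between 24.5 and 53.2. Of 17 tested cytokine and growth factor genes 5 rose and 7 fell (median -0.52), beside 18.4% of all genes higher and 31.1% lower. Without OA_1038 or OA_3850 3 rose and 4 fell, 2 rose without OA_2615, 4 fell without OA_9350, and 4 fell with TMM or median-ratio factors. Among them lymphotoxin LTB (-3.29), the T cell attractant IL16 (-2.23) and the death ligand TNFSF10 (-1.58) were lower, and the angiogenic factor VEGFA was higher, at 12.7, 16.6, 60.9, 45.7 and 139 in fluid and 6.81, 4.73, 6.07, 7.48 and 4.51 in blood (2.54 ± 0.50, adjusted p = 0.0056). VEGFA was highest in OA_9570, the fluid poorest in fibroblast genes.

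Targets of NF-kappa-B, the transcription factor downstream of interleukin-1 and TNF, rose in 5 of 15 tested genes (3 without OA_2615 or OA_3850) and fell in 2. Their median was 0.08, and of all genes 18.4% were higher and 31.1% lower. The 8 that were not called included NFKBIA, NFKB1, NFKB2, RELB and TNFAIP3. PLAUR, the urokinase receptor, measured 168, 264, 597, 498 and 259.8 in fluid and 28.8, 22.8, 36.5, 51 and 36.1 in blood (3.21 ± 0.22, adjusted p = 0.000218). ICAM1, an adhesion molecule, and SOD2, a mitochondrial superoxide dismutase, differed by 3.02 ± 0.32 and 1.10 ± 0.22. TNFAIP2 and BIRC3 fell (-1.69 and -1.09). In the eicosanoid pathway 4 of 14 genes rose and 5 fell (median 0.33), beside 18.4% of all genes higher and 31.1% lower. There were 2 rises and 3 falls without OA_3850, and 3 falls with TMM or median-ratio factors. ALOX5, the first enzyme of leukotriene synthesis, measured 43.8, 106, 106, 177 and 118 in fluid and 1.96, 5.29, 16.7, 26.1 and 3.3 in blood (3.62 ± 0.33, adjusted p = 0.000439). PTGIS, prostacyclin synthase, measured 26.5, 16.6, 4.45, 5.93 and 0.706 in fluid and 0 in every blood (2.98 ± 0.56, adjusted p = 0.00461). The prostaglandin E2 receptor PTGER4 (-1.18) and the synthase PTGES2 (-0.68) were lower in every fluid than in any blood.

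Ligands of the EGF receptor, growth factors shed from cell surfaces, were far higher in fluid, and AREG and EREG were all but silent in blood. AREG (amphiregulin) measured 10.8, 18.9, 102, 156 and 1.24 in fluid and at most 0.0584 in blood (4.58 ± 0.83, adjusted p = 0.00408). EREG (epiregulin) measured 6.93, 2.28, 36.6, 9.15 and 3.81 in fluid and at most 0.0605 in blood (3.08 ± 0.50, adjusted p = 0.00261), and HBEGF measured 48.5, 94.9, 223, 166 and 7.03 in fluid and 6.37, 1.23, 1.87, 6.16 and 2.09 in blood (4.08 ± 0.66, adjusted p = 0.00276). ERRFI1, a feedback inhibitor of the receptor, rose with them (4.54 ± 0.68, adjusted p = 0.00206). OA_9570 had the lowest level of AREG, HBEGF and ERRFI1, and OA_3850 or OA_9350 the highest of the 3 ligands. In this list 6 of 8 tested genes rose and none fell, and 7 rose without OA_9570. The median was 2.59, or 3.58 with the 1 gene without a blood read set to the bound that 3 reads allow. In the TGF-beta and BMP list 7 of 24 genes rose and 6 fell (median 0.22), beside 18.4% of all genes higher and 31.1% lower. Only 3 rose without OA_1038 or OA_2615 and 2 without OA_3850. The co-receptor ENG measured 521, 672, 538, 503 and 547 in fluid and 95.4, 98.5, 144, 155 and 219.9 in blood (2.02 ± 0.23, adjusted p = 0.000848), and INHBA, an activin subunit, differed by 2.91 ± 0.61. The signal transducer SMAD3 (-2.01) and the BMP target ID3 (-2.81) were lower in every fluid than in any blood.

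Of 14 tested genes of antigen presentation through MHC class I 9 were lower in fluid and none higher (median -1.01). NLRC5, the transactivator of class I genes, measured 132, 38.7, 102, 116 and 174 in fluid and 478, 299.6, 285, 402 and 409 in blood (-1.85 ± 0.25, adjusted p = 0.00134). TAP1, the peptide transporter, measured 92.7, 52.3, 79.9, 106 and 160.4 in fluid and 237, 304, 228, 255 and 411 in blood (-1.59 ± 0.21, adjusted p = 0.00133), and TAPBP and the immunoproteasome subunit PSMB10 differed by -1.29 and -1.35. For these 4 genes every fluid was below every blood. Of 11 class II genes 2 fell and none rose, namely the regulators CIITA (-1.94) and RFX5 (-1.30), while the summed class II level was 19423 to 44801 RPM in fluid and 16643 to 27712 in blood. Of 26 genes induced by type I interferon 9 were lower and 2 higher (median -0.59), beside 31.1% of all genes lower and 18.4% higher. RSAD2, an antiviral enzyme, and DTX3L, an antiviral ubiquitin ligase, differed by -1.35 ± 0.19 and -1.45 ± 0.19, IRF9 by -0.94, and IFI6 rose (1.21).

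In the hypoxia and glycolysis list 13 of 26 genes rose and none fell (median 0.52). Without OA_2615 or OA_3850 there were 8 rises, and without OA_9570 there were 8 rises and 2 falls. LDHA, lactate dehydrogenase, measured 769, 883, 1282, 918 and 1193 in fluid and 313, 412, 463, 407 and 522 in blood (1.24 ± 0.16, adjusted p = 0.00131). TPI1 and GAPDH, glycolytic enzymes, differed by 1.34 ± 0.16 and 1.29 ± 0.19, and BNIP3, a hypoxia-inducible mitophagy receptor, measured 63.3, 62.8, 109, 44.4 and 60.9 in fluid and 18.9, 17.2, 16.2, 14 and 16.4 in blood (1.92 ± 0.19, adjusted p = 0.00057). Every fluid exceeded every blood for these 4 genes. Of 26 oxidative phosphorylation genes 11 rose and 1 fell, with a small median of 0.16, beside 18.4% of all genes higher and 31.1% lower. Without OA_1038, OA_3850 or OA_9350 7 of the 26 rose. In that list the complex subunits NDUFA4 and COX7B differed by 1.23 and 1.17. Antioxidant genes rose in 9 of 14 cases and fell in none (median 0.94): TXN (thioredoxin) measured 537, 269, 342, 239.9 and 124 in fluid and 80.6, 123, 78.9, 75.6 and 73 in blood (1.67 ± 0.28, adjusted p = 0.00304), and PRDX1, SRXN1 and GPX4 differed by 1.49, 2.14 and 1.02. In the haem and iron list 4 of 16 genes rose and 4 fell (median 0.43), beside 18.4% of all genes higher and 31.1% lower. Only 2 rose without OA_3850. The 4 that fell were SLC11A1, FLVCR1, LCN2 and IREB2. FTL, the light chain of the iron store ferritin, measured 2529, 3075, 3656, 4339 and 2913 in fluid and 1209, 1093, 1410.2, 1704 and 1638 in blood (1.22 ± 0.20, adjusted p = 0.0028). HMOX1, the haem-degrading enzyme, measured 212, 522, 1413, 2485 and 519 in fluid and 185, 182, 284, 194 and 309 in blood (1.69 ± 0.46, adjusted p = 0.0196), and missed the threshold without OA_3850 (adjusted p = 0.0675).

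Of 19 adhesion and migration genes 6 were higher and 7 lower (median -0.24), beside 18.4% and 31.1% of all genes. ITGAL, the leukocyte integrin subunit of LFA-1, measured 132, 82.6, 143, 222 and 235 in fluid and 707, 696, 592, 739.8 and 754 in blood (-2.18 ± 0.23, adjusted p = 0.000685). ITGA4, the subunit of VLA-4, and S1PR4 differed by -1.80 and -3.36, and the gut-homing receptor CCR9 by -2.86. The laminin-binding integrin ITGA6 was higher, at 45.7, 65.7, 51.8, 36.3 and 40.3 in fluid and 9.59, 14.8, 13.7, 8.89 and 8.23 in blood (2.03 ± 0.15, adjusted p = 0.000233), as was the chemokine receptor CCR1 (1.68), and the tetraspanin CD9 of the lysosome and lipid list (2.75).

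Cell cycle genes were higher in 11 of 20 cases and lower in none (median 0.82), in 17 with median-ratio factors and in 8 without OA_3850 or OA_9350. MCM4, a subunit of the replicative helicase, measured 121, 99.8, 166, 111 and 123 in fluid and 68.6, 78.9, 52.2, 62.4 and 57.1 in blood (0.94 ± 0.20, adjusted p = 0.00684). CCNB2 and UBE2C, which act in mitosis, were low in both tissues, at 7.38 to 21 and 9.24 to 31.8 in fluid and 1.02 to 4 and 2.33 to 7.6 in blood (1.97 and 1.63), and PCNA differed by 0.72. Immediate early and heat shock genes, which many cells induce within minutes of handling, rose in 11 of 27 cases and fell in none (median 0.65), with 17 rises under TMM and 19 under median-ratio factors. There were 8 rises without OA_2615 or OA_3850, beside 18.4% of all genes higher. EGR3 measured 60.7, 113, 117, 253 and 26.6 in fluid and 4.76, 0.468, 0.788, 17.2 and 2.72 in blood (4.49 ± 0.53, adjusted p = 0.000948). NR4A3 measured 83, 78.2, 449, 774 and 19.4 in fluid and 4.35, 2.25, 0.73, 1.12 and 1.97 in blood (5.58 ± 0.83, adjusted p = 0.00209), with NR4A2 and FOSL1 at 3.36 and 2.81. The part of the warm digestion of fluid in these differences was not tested. Ribosomal protein genes hardly differed, with 2 of 64 higher (RPL26 and RPS24), 1 lower (RPS10) and a median of 0.19. None of the 64 was called without OA_1038, OA_2615 or OA_3850, 2 were lower and none higher without OA_9350, and 5 were higher and none lower without OA_9570. With TMM factors 5 were higher and none lower. Reads of these genes can be shared with processed copies, so single members are uncertain.

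**Figure D4:**
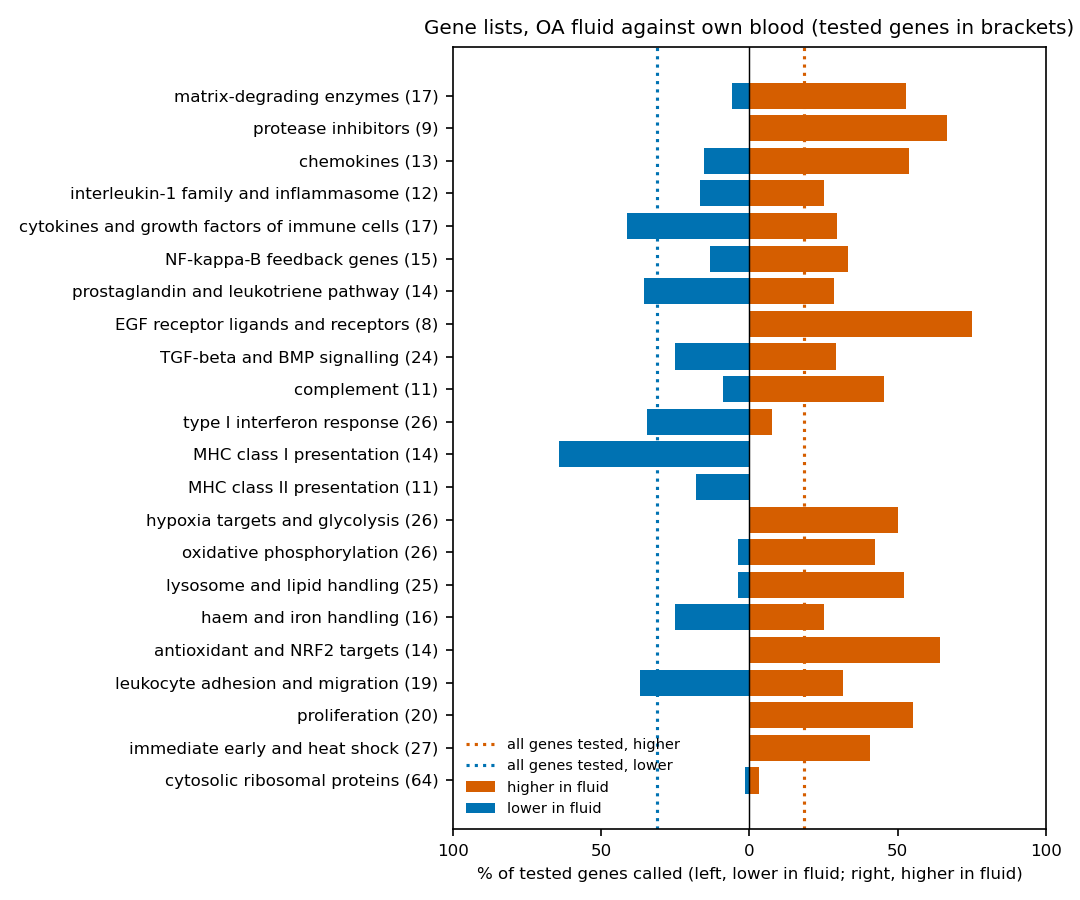
Share of the tested genes of each pathway list (number in brackets) called higher in fluid (right, orange) or lower (left, blue) in the 5 OA horses, with dotted lines at the shares of all genes tested. Among these pathway lists, which leave out the cell type and matrix lists, the EGF receptor, protease inhibitor and antioxidant lists reach furthest to the right of the 18.4% line, and MHC class I presentation reaches furthest to the left of the 31.1% line.

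A healthy joint also contains macrophages and shed lining cells, so the OA pairs were compared with the 8 healthy pairs by the same within-horse difference. This comparison uses the OA values given above and is no second test of them. Of 12629 genes, the difference between fluid and blood was higher in OA than in healthy horses for 1164 (9.22%) and lower for 2601 (20.6%), with a median over all genes of -0.19. Of the called genes 30.9% were thus higher, against 45.4% with TMM factors, which moved that median to -0.04. T cell and cytotoxic genes were prominent on the lower side. CD3D differed by -2.12 between fluid and blood in OA pairs and by -0.01 in healthy pairs (OA minus healthy -2.11 ± 0.47, adjusted p = 0.00598). CD8A differed from blood by -1.12 in OA pairs and by 1.15 in healthy pairs (-2.27 ± 0.35, adjusted p = 0.00229). All 15 T cell genes and 14 of the 15 cytotoxic and NK cell genes tested here were called lower in OA, with medians of -1.88 and -2.27. GZMM (-3.26 ± 0.55, adjusted p = 0.00249), the killing ligand FASLG (-3.19 ± 0.49, adjusted p = 0.00229), the activating receptor KLRK1 (-3.12 ± 0.58, adjusted p = 0.00346) and the NK receptor CD244 (-3.31 ± 0.56, adjusted p = 0.00258) were among the 6 lowest differences, with MYO15A (-3.34), a myosin of hair cells, and the stress kinase MAPK13 (-3.13). For MYO15A, CD244, GZMM and FASLG the OA horses did not overlap the healthy ones, whereas for KLRK1 and MAPK13 they did.

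B cell and macrophage genes did not separate the groups in this way. MS4A1 differed from blood by -5.20 in OA and -4.37 in healthy horses (-0.83 ± 0.66, adjusted p = 0.353), and of 13 B cell genes tested here 1 was called higher and none lower. That call was lost without OA_1038, OA_3850 or OA_9350. MRC1 differed by 5.17 and 5.05 (0.13 ± 0.41, adjusted p = 0.831), C1QB by 6.33 and 7.35 (-1.03 ± 0.70, adjusted p = 0.278) and SPP1 by 5.45 and 5.45 (adjusted p = 0.996). In the macrophage list 1 of 15 genes was called higher and none lower, with a median of -0.01. A p above the threshold does not show that the groups are alike.

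For connective tissue genes the difference between OA and healthy pairs depended on OA_9570. COL1A1 differed from blood by 9.92 in OA and by 6.38 in healthy horses, which missed the threshold (3.54 ± 1.57, adjusted p = 0.0977). Without the fluid and blood of OA_9570 the COL1A1 difference was 5.2 (adjusted p = 0.00708). OA_9570 was singled out by its low values for these genes in these same data, so leaving it out was bound to raise the difference. That p is therefore no independent test, and the counts without OA_9570 below carry the same limit. No healthy horse was left out in turn. COL6A3 was called with all horses (3.85 ± 1.33, adjusted p = 0.0409) but not without any 1 of the other 4 (adjusted p of 0.0707 to 0.105), and was 5.15 without OA_9570. With edgeR on recovered reads it was 1.08 (adjusted p = 0.79). Of the 22 matrix genes 5 were called higher and of the 16 fibroblast genes 5, with medians of 2.53 and 2.03, against 15 and 14 without OA_9570. Without OA_1038, OA_2615 or OA_3850 no matrix gene was called and without OA_9350 only 1, and 2 to 4 fibroblast genes were called without any 1 of these 4 horses. The largest single differences were in VAT1L (4.85 ± 0.92, adjusted p = 0.00346), DEFB1, an epithelial antimicrobial peptide (4.30 ± 0.90, adjusted p = 0.00465), AREG (3.93 ± 0.88, adjusted p = 0.0062), the actin-binding CNN3 (3.91 ± 0.78, adjusted p = 0.00394), EHD2, a caveolar ATPase (3.85 ± 0.93, adjusted p = 0.00856) and COL6A3. VAT1L measured 53.6, 234, 225, 49.6 and 1.02 in OA fluid and at most 0.0576 in OA blood. DEFB1 measured 574, 199.8, 117, 278 and 4.77 in OA fluid, again lowest in OA_9570, and 0.851, 0.321, 0.35, 2.22 and 0.726 in blood.

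Single genes of proteolysis, growth factor signalling, iron and redox handling and antigen presentation also differed between OA and healthy pairs. As lists, matrix-degrading enzymes held 3 of 16 genes higher in OA and 2 lower, and haem and iron genes 3 of 16 each way. EGF receptor genes held 3 of 8 higher, antioxidant genes 5 of 14 higher and MHC class I genes 6 of 14 lower, with none the other way. Of all genes 9.22% were higher and 20.6% lower. ADAMTS5 (2.88 ± 0.80, adjusted p = 0.0163), EREG (2.87 ± 0.51, adjusted p = 0.0029), VEGFA (2.31 ± 0.51, adjusted p = 0.00549), TXN (1.43 ± 0.27, adjusted p = 0.00348) and FTL (1.19 ± 0.25, adjusted p = 0.0048) were higher in OA pairs. With edgeR on recovered reads the EREG call was lost (adjusted p = 0.843). The healthy differences of these 5 genes were 0.92, 0.21, 0.23, 0.24 and 0.03. On the lower side were NLRC5 (-2.26 ± 0.36, adjusted p = 0.00229), TAP1 (-1.79 ± 0.31, adjusted p = 0.00288), ITGAL (-2.10 ± 0.34, adjusted p = 0.00229), CCL5 (-2.39 ± 0.56, adjusted p = 0.00757), GATA3 (-2.43 ± 0.47, adjusted p = 0.00361) and CXCR3 (-2.11 ± 0.42, adjusted p = 0.00384). CCR6 went from -1.88 in healthy to 0.99 in OA pairs (2.86 ± 0.55, adjusted p = 0.00354). The cartilage collagens COL2A1 and COL9A2 differed from blood by 1.48 and 0.41 in healthy pairs and by -0.25 and -1.40 in OA pairs, with OA minus healthy differences of -1.73 and -1.81 (adjusted p = 0.0179 and 0.00308). They were the 2 called lower of 8 cartilage genes tested here, and 1 other was called higher. Of ribosomal protein genes 61 of 64 were called higher in OA pairs, with a median of 1.04. Their difference from blood was -0.84 in healthy pairs by the median gene. In OA pairs it ranged from -0.29 in OA_2615 to 0.85 in OA_9350 by the list mean.

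**Figure D5:**
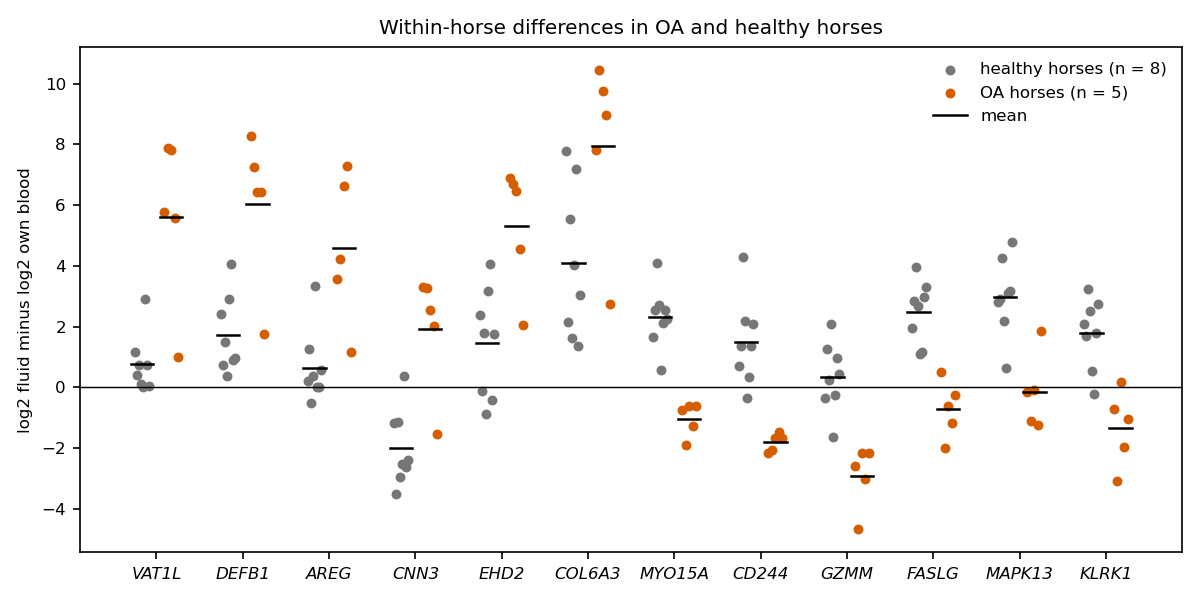
Log2 difference between fluid and own blood in each horse for the 6 genes with the largest and the 6 with the smallest OA minus healthy difference, with healthy horses in grey (n = 8), OA horses in orange (n = 5) and a black line at the group mean. OA horses lie above most healthy horses for VAT1L to COL6A3, with 1 OA horse low for each of these genes, and below all healthy horses for MYO15A, CD244, GZMM and FASLG.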

How the data were processed

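RNA-seq of synovial fluid cells and PBMC was taken from the 5 OA and 8 healthy horses with both samples. The deposited values are a normalized signal, in that the authors divided the reads of each gene by a size factor of the median-ratio kind, with fluid and blood handled apart. The submitters' processing notes name EquCab3.0 as the build and the tools Partek, HTSeq, STAR 2.7.3, DESeq and cutadapt. Whether strand was used is not given in the sources used here, so overlapping genes cannot be told apart. Coordinates are those of the blood table. No column was left unused. Reads were recovered from the steps of the values, and in the 10 OA libraries at least 99.79% of values came out whole within 0.1 of a read. The smallest chi-square per gene between any pair of libraries of a tissue was 53.5, so none counted as copies.

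Symbols found once in both tables (16799 of 17538 and 17410) were scaled to 1 M per library. Genes with a mean of at least 1 on that scale were fitted as log2(value + 1) with limma 3.58.1 in R 4.3.3 (trend, robust variance, horse as a block, two-sided), called at a Benjamini-Hochberg adjusted p below 0.05. OA was compared with healthy on within-horse differences. The horse numbers in the titles name the animal of both samples: same-horse deviations from the group means correlated at 0.085 to 0.31, and each fluid correlated best with its own blood in 5 of 5 horses. Seen from blood, OA_9350 correlated better with the fluid of OA_9570 (0.139) than with its own fluid (0.085). Alternatives included edgeR 4.0.16 and DESeq2 1.42.0 on recovered reads. The steps were tested on simulated data. The horses and the 40 gene lists were chosen with earlier results of these data known, so list counts carry no test. The genes to be named were the 12 largest rises and 12 largest falls moving alike in 5 horses with a mean of at least 10, up to 4 genes of smallest p per list and 2 in the other direction, the 6 largest and 6 smallest OA minus healthy differences, and markers of other cells. Some genes that this rule names are not reported here. A floor is 3 reads over the 5 libraries of a tissue and covers counting error only.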

Additional observations from a re-analysis of the deposited data

Results flagged for a closer look

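Differences between fluid and own blood were screened in the 5 OA horses for 1 value far from the other 4, over the 161 genes and 40 gene lists described. The gap to the nearest horse exceeded Dixon's critical value in 23 of them, where chance flags about 1 in 20. OA_9570 accounted for 11 of these. It was lowest for DCN (2.20, others 7.99 to 9.55), COL1A1 (3.28, others 10.55 to 13.03), COL6A1 (3.63, others 9.23 to 10.60), CLU (4.04, others 9.40 to 10.67), ADAMTS5 (0.040, others 4.42 to 4.90), TIMP3 (1.46, others 6.43 to 7.83), DEFB1 (1.74, others 6.44 to 8.28) and CNN3 (-1.54, others 2.01 to 3.31). It was also lowest for the list means of protease inhibitors (1.15, others 2.82 to 3.42) and EGF receptor ligands and receptors (0.91, others 3.005 to 3.74), and highest for GSDMD (-0.47, others -1.29 to -1.07). OA_2615 accounted for 7: it had the lowest difference for CD3D (-3.04, others -2.05 to -1.76), CD247 (-3.69, others -2.08 to -1.89), LCK (-3.60, others -2.15 to -1.79), TRAT1 (-4.34, others -2.77 to -2.20), TCF7 (-5.66, others -3.52 to -2.98) and TAP1 (-2.51, others -1.50 to -1.26), and for the mean of the list of T cells (-3.41, others -1.94 to -1.60). OA_1038 was lowest for THBS1 (-5.21, others -2.80 to -2.005) and interleukin-1 family and inflammasome (-0.11, others 0.63 to 0.81), OA_3850 highest for BNIP3 (2.68, others 1.60 to 1.83) and PCNA (1.32, others 0.44 to 0.66), and OA_9350 lowest for type I interferon response (-0.93, others -0.39 to -0.25).

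The difference between fluid and own blood itself differed between OA and healthy pairs (limma on within-horse differences, adjusted p below 0.05) for 28 of the 33 genes whose OA minus healthy difference is described above. Genes described only for fluid against blood are not listed, though some of them were called too. It was higher in OA for VAT1L (4.85), DEFB1 (4.30), AREG (3.92), CNN3 (3.91), EHD2 (3.85), COL6A3 (3.85), ADAMTS5 (2.88), EREG (2.87), CCR6 (2.86), VEGFA (2.31), TXN (1.43) and FTL (1.19). It was lower in OA for COL2A1 (-1.73), TAP1 (-1.79), COL9A2 (-1.81), ITGAL (-2.10), CD3D (-2.11), CXCR3 (-2.11), NLRC5 (-2.26), CD8A (-2.27), CCL5 (-2.39), GATA3 (-2.43), KLRK1 (-3.12), MAPK13 (-3.13), FASLG (-3.19), GZMM (-3.26), CD244 (-3.31) and MYO15A (-3.34). Values are OA minus healthy on the log2 scale.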

How the results depend on the processing

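Equal library totals were kept as the main scaling, and no gene called with them was called in the opposite direction under any other setting. Counts of higher and lower genes in OA fluid stayed within 1.5 times of the main counts of 2334 and 3942 for most settings. The exceptions were edgeR on recovered reads, with 2547 lower, and the fit without OA_3850, with 1481 higher. Leaving out a horse gave 1481 to 2534 higher and 2981 to 3805 lower. TMM gave 2902 and 3067, median-ratio factors 3062 and 2817 and DESeq2 3444 and 3086. For OA against healthy pairs, edgeR gave 1616 lower, and leaving out an OA horse gave 716 to 1625 higher (757 without OA_1038 and 716 without OA_3850) and 1861 to 2622 lower. Without the replicate block that pairs the samples of a horse, 2296 genes were higher and 3970 lower in fluid, and 848 and 1867 differed between OA and healthy horses.

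Of 157 genes named and called in fluid against blood, 147 kept their call whichever horse was left out and 10 lost it in at least 1 such fit. Under TMM or median-ratio scaling 3 lost it (ALPL, RPS10 and KLRK1). The 10 were ALPL, CCR6, CNN3, CXCR3, HMOX1, KLRK1, RPL26, RPS10, RPS24 and SELP. Of the 28 OA minus healthy calls described, out of 33 such differences given, 1 was lost without a horse (COL6A3). With edgeR, COL6A3 (1.08, adjusted p = 0.79) and EREG (3.81, adjusted p = 0.843) missed the threshold, and COL6A3 did so too with a pseudocount of 0.1 (0.0618), with no filter (0.0606) and without the replicate block (0.0538).

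Values near 0 changed sign without being called. MAPK13 in fluid against blood went from -0.15 to 0.025 (TMM), 0.071 (median-ratio), 0.0081 (edgeR) and 0.020 (DESeq2), and ranged from -0.65 to 0.12 when a horse was left out (0.09 without OA_2615, 0.12 without OA_9350). For OA minus healthy, SPP1 (-0.004) went to 0.16 with TMM, 0.072 with edgeR, and ranged from -0.34 to 0.38 when a horse was left out (0.19 without OA_3850, 0.38 without OA_2615). MRC1 (0.13) ranged from -0.28, without OA_9350, to 0.55. The cause of these changes was not tested. With a mean of at least 1 required in each tissue no erythroid gene was left, so that list has no value there. That filter also removes genes without blood reads, leaving 5 matrix genes and 3 fibroblast genes called higher. Depth was 25.9 M reads or more per library, and precision is set mainly by the 5 horses.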
